A study of Mus musculus with 6 samples.

Results

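The genes described here make cholesterol and fatty acids or control that synthesis. They are 34 genes chosen by symbol in the GENCODE vM21 mouse annotation, 18 of the sterol pathway, 11 of the fatty acid pathway and 5 regulators of the SREBP transcription factors, out of 16430 genes tested and 54119 annotated genes. All 34 passed the filter on low counts. The libraries held poly(A) RNA of pancreatic islets from 3 Dpy30 knockout and 3 control mice, all male C57BL/6 at postnatal day 24, with 100 to 200 islets picked by hand from each mouse and a separate mouse behind every library. The DPY30 protein belongs to the core of the enzyme complexes that place methyl groups on lysine 4 of histone H3. The comparison asks which transcripts differ between islets of mice labelled knockout and control. Which Cre line was used and which part of Dpy30 was deleted is not in the labels, and they say of the control genotype only that it is control.

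Cells build cholesterol from acetyl-CoA through mevalonate, squalene and lanosterol, and they build saturated fatty acids from the same acetyl-CoA, which are then elongated and desaturated. When membrane sterol is low, the escort protein SCAP carries the membrane-bound SREBP precursors from the endoplasmic reticulum to the Golgi, where they are cut, and the released fragments enter the nucleus and switch on the genes of both pathways. INSIG proteins hold SCAP and SREBP back when sterol is plentiful. SREBP-2, from Srebf2, acts mainly on sterol genes, and SREBP-1c, from a downstream start of Srebf1, mainly on fatty acid genes. In beta cells, the insulin-secreting cells of the islet, membrane cholesterol is known to affect ion channels and the release of insulin granules.

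The estimated reads were 22694892, 17131515 and 23976598 in knockout replicates 1 to 3, and 25208847, 25354384 and 24575889 in control replicates 1 to 3. Transcripts without exon 4 of Dpy30, which the labels do not name as deleted (chr17:74307720-74307862, GRCm38, 143 bases) held 80.5 to 82.2% of its estimated reads in the knockout libraries, against 0.438 to 5.24% in the control libraries, so each library matched its label. Knockout replicate 2 stood apart. Its levels fell with transcript length across 10534 genes (Spearman rho -0.51, against 0.02 and 0.03 in the other knockout libraries and 0.17 to 0.29 in the controls). The log2 fold change of these genes also fell with length (rho -0.31, and -0.16 without knockout replicate 2). Apart from the fit with an offset for length, the part of length in single differences was not tested. Knockout replicate 2 also held 158399 CPM (read counts scaled to library size) of Gm42418, a locus that overlaps ribosomal RNA sequence, against at most 2145 CPM in the other libraries. For some of the genes that it moved, the value without it is given beside the gene. Summed beta cell markers were 71547 to 121810 CPM in the knockout libraries and 160362 to 264893 CPM in the control libraries. These sums are carried by Ins1 and Ins2; of the 9 beta markers 3 fell (Slc2a2, Ucn3 and Slc30a8), and Mafa stood 0.59 log2 units higher in the knockout libraries without passing the threshold (edgeR adjusted p = 0.097). Summed alpha cell markers were 24244 to 29200 CPM in the knockout libraries and 37036 to 66192 CPM in the control libraries, and delta cell markers 1458 to 1873 CPM in the knockout libraries and 3117 to 3445 CPM in the control libraries. Summed acinar (digestive enzyme) markers were 4919, 2340 and 14728 CPM in knockout replicates 1 to 3, and 1013 to 3453 CPM in the control libraries. Of the 14 acinar markers, 0 rose and 1 fell, against 4.1% and 5.84% of all genes tested. Of 10 adipocyte markers, 9 were at or under 0.281 CPM in every library, Adipoq among them, and the remaining Fabp4, which endothelial cells also express, rose (log2 fold change 1.98, SE 0.23, adjusted p = 0.0029, edgeR). Summed endothelial markers were 828 to 1077 CPM in the knockout libraries and 609 to 768 CPM in the control libraries, and Schwann cell markers, of a cell type rich in sterol synthesis, 57.0 to 82.6 CPM in the knockout libraries and 41.3 to 64.2 CPM in the control libraries. The part of these cell types in the differences described here was not tested, other than by the acinar covariate where it is named.

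Promoter sequences of RefSeq (GRCm38.p6, 250 bases before the annotated start, 5′ to 3′ on the gene's strand) were matched for 28 of the 34 genes. Those of 5 are shown, chosen after their values were seen: the pair of genes that passed the test, Hmgcs1 as the gene of the sterol pathway whose libraries spread most widely, and Insig1 and the downstream start of Srebf1 as the regulators with the largest differences. Capitals mark letters of TCACNCCAC (a form of the sterol regulatory element), CCAAT (the NF-Y box), GGGCGG (the Sp1 box) or CACGTG (an E-box), each on either strand.
Acss2, chr2:155517793-155518042, plus strand: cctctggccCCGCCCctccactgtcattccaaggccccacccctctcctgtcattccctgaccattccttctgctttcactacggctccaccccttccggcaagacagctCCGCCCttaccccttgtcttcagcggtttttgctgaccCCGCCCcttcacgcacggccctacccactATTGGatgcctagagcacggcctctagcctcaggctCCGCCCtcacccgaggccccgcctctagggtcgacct
Elovl5, chr9:77917115-77917364, plus strand: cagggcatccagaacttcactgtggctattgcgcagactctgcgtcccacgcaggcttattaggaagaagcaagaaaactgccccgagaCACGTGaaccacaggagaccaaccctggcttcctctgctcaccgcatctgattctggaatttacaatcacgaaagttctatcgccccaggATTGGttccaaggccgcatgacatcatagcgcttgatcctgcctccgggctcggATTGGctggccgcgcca
Hmgcs1, chr13:119690101-119690350, plus strand: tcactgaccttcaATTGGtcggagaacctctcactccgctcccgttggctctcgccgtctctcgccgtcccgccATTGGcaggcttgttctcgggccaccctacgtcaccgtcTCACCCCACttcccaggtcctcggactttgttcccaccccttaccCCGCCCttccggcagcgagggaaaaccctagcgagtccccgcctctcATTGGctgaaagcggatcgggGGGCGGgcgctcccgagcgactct
Insig1, chr5:28071162-28071411, plus strand: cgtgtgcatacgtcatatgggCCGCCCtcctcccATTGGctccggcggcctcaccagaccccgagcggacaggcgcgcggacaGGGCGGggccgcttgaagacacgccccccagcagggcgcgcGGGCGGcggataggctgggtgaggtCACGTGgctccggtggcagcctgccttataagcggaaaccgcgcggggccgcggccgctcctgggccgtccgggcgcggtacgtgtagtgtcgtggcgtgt
Srebf1 downstream start, chr11:60210472-60210721, minus strand: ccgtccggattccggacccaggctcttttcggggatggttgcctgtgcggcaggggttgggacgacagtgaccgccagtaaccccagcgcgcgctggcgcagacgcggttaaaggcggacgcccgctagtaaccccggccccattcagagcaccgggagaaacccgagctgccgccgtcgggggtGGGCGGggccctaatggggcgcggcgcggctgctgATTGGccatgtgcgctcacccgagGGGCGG

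The form TCACNCCAC occurred in the promoter of Hmgcs1 alone among the 28 genes, and in 1.05% of all 32851 promoters in the table. The NF-Y box occurred in the promoters of 22 of the 28 genes (78.6%), 14 of them among the 15 sterol pathway genes in the table, and in 33.8% of all promoters. The Sp1 box occurred in 22 of the 28 genes, against 32.7% of all promoters, and the E-box in 6 of the 28 (21.4%), against 6.02%. A gene with several promoters in the table counted once if any of them held the letters, while the shares of all promoters count single promoters. By single promoters, the NF-Y box was in 14 of 18 of the sterol pathway, 4 of 8 of the fatty acid pathway and 5 of 10 of the regulators. For the Sp1 box these counts were 15, 3 and 7, and for the E-box 3, 1 and 2. A match in these windows is a match of letters and no measurement of binding.

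**Figure D1:**
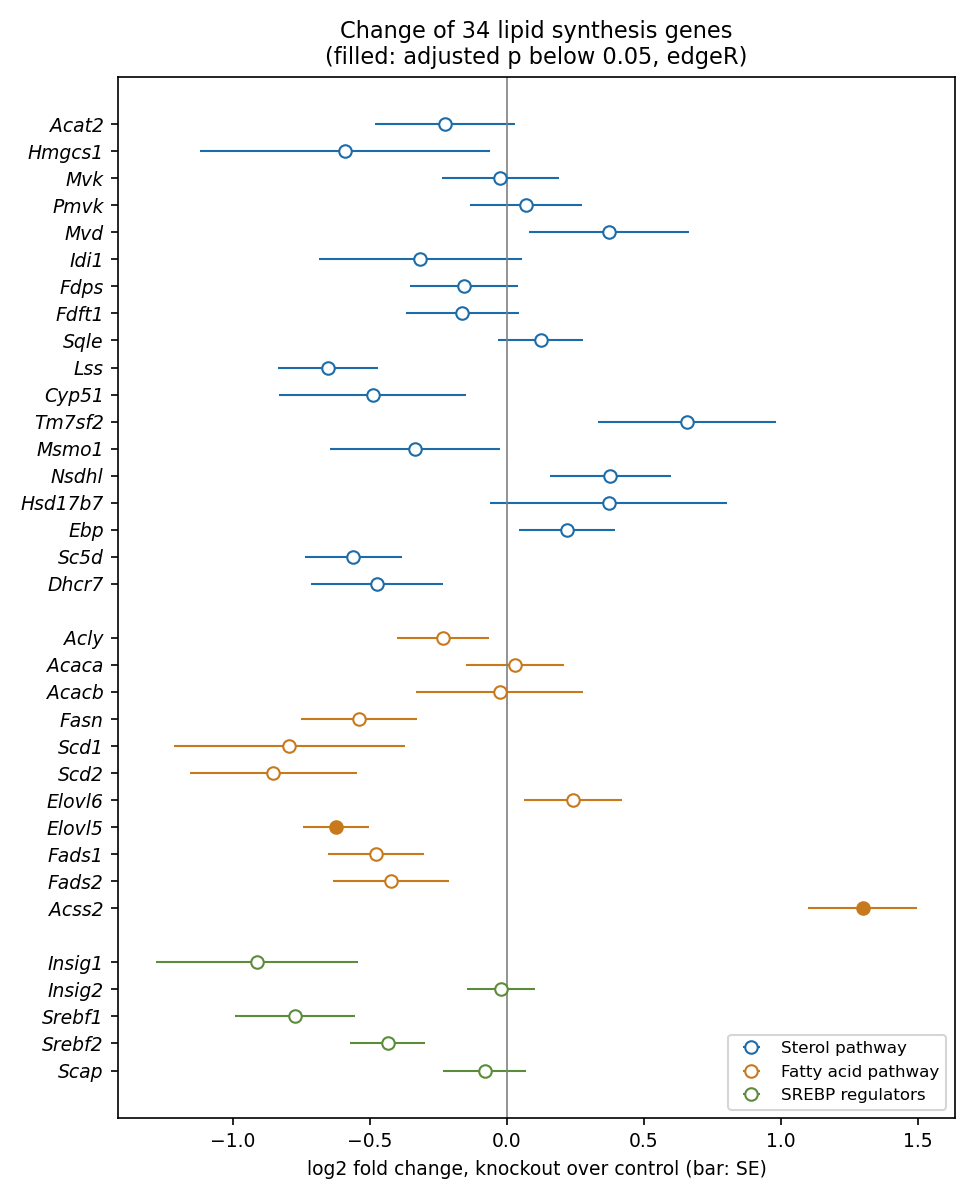
Log2 fold change, knockout over control, of the 34 genes in pathway order, with bars of 1 SE (3 libraries per group). Filled points, Acss2 at 1.30 and Elovl5 at -0.62, passed an adjusted p of 0.05 in edgeR; all 5 regulators lie left of 0.

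Of the 34 genes, 1 rose and 1 fell in the knockout islets (5.88% called), where 9.95% of all genes tested were called, 4.1% higher and 5.84% lower. The higher gene was Acss2, which makes acetyl-CoA from acetate in the cytosol and nucleus, and the lower one was Elovl5, which elongates polyunsaturated fatty acids. Both belong to the fatty acid pathway. None of the 18 sterol pathway genes and none of the 5 regulators was called in this fit, which has group as its only term. With the replicate number as a block, edgeR called Lss and Sc5d of the sterol pathway and Srebf1 and Insig1 of the regulators, all lower, where 14.8% of all genes tested were called. At an unadjusted p under 0.05, 9 of the 34 genes were lower and 1 was higher, against 13.5% and 13.9% of all genes tested. The log2 fold change was negative for 24 of the 34 genes (70.6%), against 49.5% of all genes tested, and its median was -0.23, against 0.01. In 7 of the 34 genes every knockout library lay below every control library and in 1 every knockout library lay above, against 17.2% and 17.6% of all genes tested.

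Acss2 (chr2:155517948-155585724, plus strand) had 77.1, 83.2 and 74.1 CPM in knockout replicates 1 to 3, against 27.0, 42.0 and 26.2 CPM in control replicates 1 to 3. Every knockout library lay above every control library, and control replicate 2 was the highest of the controls. The level averaged 78.2 ± 4.6 CPM in the knockout libraries, against 31.8 ± 8.9 CPM in the controls (SD, n = 3 each), a 2.46-fold difference. Its log2 fold change was 1.30 (SE 0.20, adjusted p = 0.0074 by edgeR's quasi-likelihood test with Benjamini-Hochberg adjustment). It passed in 6 of 6 fits with 1 library left out, with log2 fold changes of 1.18 to 1.55. In bulk RNA, more cells of a type and more RNA per cell cannot be told apart. The gene overlaps Gss, the glutathione synthase gene, on the opposite strand over 22544 bases. Gss also rose, with 24.6, 25.1 and 25.8 CPM in knockout replicates 1 to 3, against 15.4, 14.7 and 15.1 CPM in control replicates 1 to 3 (log2 fold change 0.74, adjusted p = 0.0132, edgeR). The Gss levels were under those of Acss2 in each knockout library, and the part of the overlap in the difference of Acss2 was not tested. The libraries were stranded, but the sources used here do not give the strand setting of the read assignment. Estimated reads from starts within 100 bases of the annotated start, where the promoter printed above ends, made up 98.2% of Acss2. Its most abundant transcript, Acss2-201, begins 95 bases before that annotated start, inside the printed stretch. The marked NF-Y box at -73 and Sp1 box at -37 lie downstream of where this transcript begins.

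Elovl5 (chr9:77917364-77984519, plus strand) had 82.4, 78.9 and 83.4 CPM in knockout replicates 1 to 3, against 128, 128 and 120.0 CPM in control replicates 1 to 3. The groups did not overlap, and neither group spread by more than a few CPM around its mean. The mean was 81.6 ± 2.4 CPM in the knockout libraries, against 126 ± 4.8 CPM in the controls (SD, n = 3 each), or 65.0% of the control level (log2 fold change -0.62, SE 0.12, adjusted p = 0.0171, edgeR). With 1 library left out it was called only when that library was knockout replicate 2 (adjusted p = 0.029), and over the 6 such fits adjusted p ran to 0.0729 while the log2 fold change stayed between -0.66 and -0.60. With the acinar marker level as a covariate it was -0.67 (adjusted p = 0.0632, edgeR).

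The other fatty acid pathway genes did not pass the test. Per unit length, Acly, which splits citrate to give cytosolic acetyl-CoA to both pathways, was the most abundant of the 34 genes in control islets at 357 ± 10.1 TPM (SD, n = 3), and Acacb, the acetyl-CoA carboxylase of the mitochondrial surface, was the least abundant at 0.721 ± 0.38 TPM. Acly had 1236, 1279 and 1342 CPM in knockout replicates 1 to 3, against 1349, 1717 and 1459 CPM in control replicates 1 to 3. Each knockout library was below each control library, but the gap between knockout replicate 3 and control replicate 1 was narrow (log2 fold change -0.23, SE 0.17, adjusted p = 0.412, edgeR). The carboxylases, which make malonyl-CoA, stayed near the control level, with log2 fold changes of 0.03 (SE 0.18) for Acaca and -0.02 (SE 0.30) for Acacb. Of the 31-base words of Acaca, 33.4% also occur in another gene, most often the predicted gene Gm5182, so its reads may be split.

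Fasn, the fatty acid synthase, had 95.7, 74.7 and 119 CPM in knockout replicates 1 to 3, against 115, 137 and 168 CPM in control replicates 1 to 3. The groups overlapped by knockout replicate 3 and control replicate 1 (log2 fold change -0.54, SE 0.21, adjusted p = 0.147, edgeR). Scd2, a delta-9 desaturase that makes monounsaturated fatty acids, had 97.1, 78.8 and 109 CPM in knockout replicates 1 to 3, against 107, 149 and 258 CPM in control replicates 1 to 3. Control replicate 3 stood well above the other libraries, and control replicate 1 lay below knockout replicate 3 (log2 fold change -0.85, SE 0.31, adjusted p = 0.118 in edgeR and 0.0326 in DESeq2; -0.43 without control replicate 3). Its close relative Scd1 was scarce, at 1.20 to 4.02 CPM in knockout libraries and 3.88 to 6.04 CPM in control libraries (log2 fold change -0.79, SE 0.42; -0.45 without knockout replicate 2).

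The delta-5 desaturase gene Fads1 had 38.3, 28.9 and 43.1 CPM in knockout replicates 1 to 3, against 44.9, 57.1 and 51.5 CPM in control replicates 1 to 3. The groups did not overlap, but the difference did not pass the test (log2 fold change -0.48, SE 0.18, adjusted p = 0.128, edgeR). For Fads2, the delta-6 desaturase gene, the knockout libraries were tightly grouped at 27.5 to 28.5 CPM while the control libraries ran over 26.3 to 48.3 CPM (log2 fold change -0.42, SE 0.21; -0.20 without control replicate 3 and -0.63 without control replicate 1). Elovl6, which elongates saturated and monounsaturated fatty acids, had a log2 fold change of 0.24 (SE 0.18), opposite in sign to Elovl5. Over the 11 fatty acid pathway genes the median log2 fold change was -0.42 (-0.26 without control replicate 3 and -0.57 without control replicate 1), and 8 were negative. In 6 of them the knockout library was lower than the control library of the same replicate number in all 3 pairs, against 27.1% of all genes tested.

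**Figure D2:**
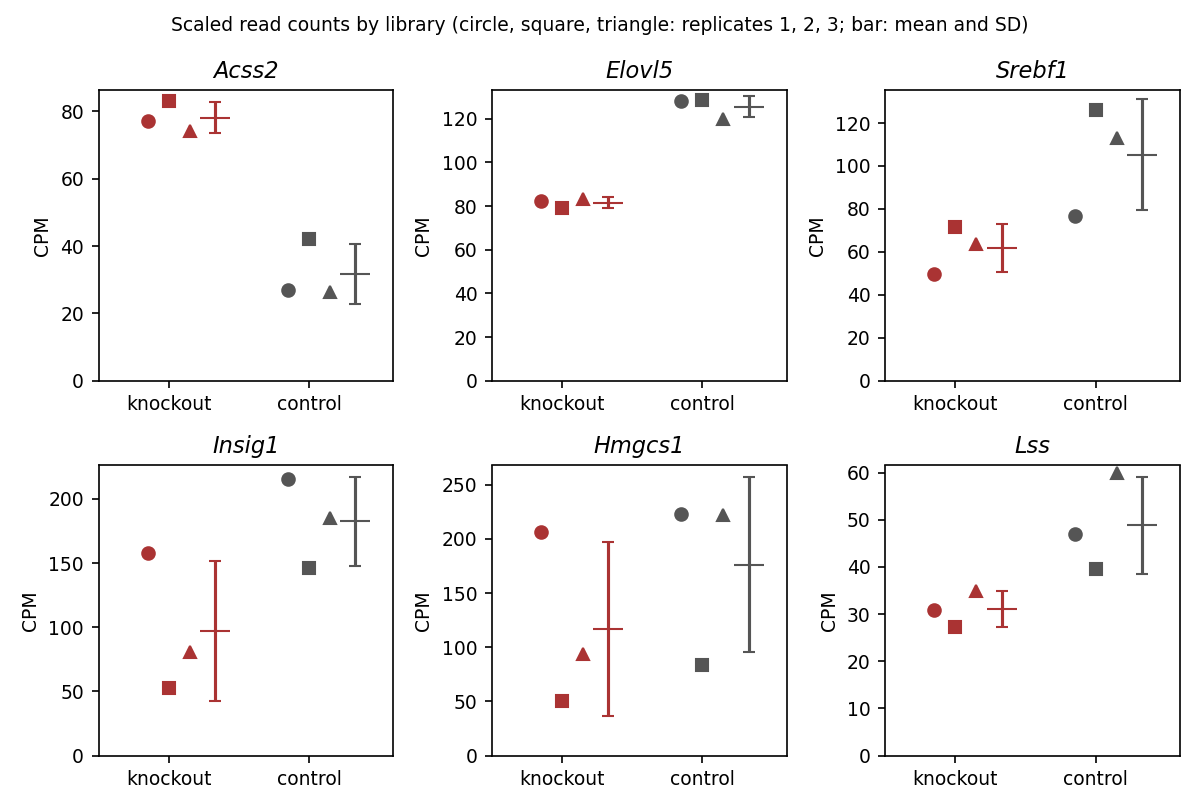
CPM of 6 genes in each knockout (red, left) and control (grey, right) library, with the mean and SD (n = 3 each) beside the points; all axes start at 0. The groups are apart for Acss2, Elovl5, Srebf1 and Lss, and they overlap for Insig1 and Hmgcs1, where knockout replicate 1 lies among the controls.

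The log2 fold change was negative for all 5 regulators of SREBP activity (median -0.43), though Insig2 and Scap, close to 0, changed sign when 1 library was left out, and none passed edgeR's adjusted threshold. Srebf1 (chr11:60199089-60222581, minus strand) had 49.7, 71.8 and 63.5 CPM in knockout replicates 1 to 3, against 76.5, 126 and 113 CPM in control replicates 1 to 3. The groups did not overlap, and replicate 1 was the lowest library of each group. The level in knockout islets was 58.5% of the control level (log2 fold change -0.77, SE 0.22, adjusted p = 0.0628, edgeR). With the replicate number as a block, adjusted p was 0.0126 in edgeR, where 14.8% of all genes tested were called, 7.86% lower and 6.93% higher. DESeq2 gave an adjusted p of 0.0096, where 14.2% of all genes were called, 7.85% lower and 6.39% higher. In edgeR it was 0.0228 without the filter, and 0.0311 without control replicate 1, with a log2 fold change of -0.96. The gene did not pass in limma-voom (adjusted p = 0.0671), nor in edgeR with the length offset (0.0638) or the acinar covariate (0.190). Of the 6 edgeR fits with 1 library left out, 1 called it, and adjusted p ran to 0.187. The authors' deposited table gives a log2 fold change of -0.70 and an adjusted p of 0.0093 for Srebf1. For other members called here only by DESeq2 or with the block, its adjusted p is under 0.05 for Scd2 alone (0.0412). It is 0.058 for Insig1, 0.103 for Srebf2, 0.184 for Lss and 0.130 for Sc5d.

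Srebf1 is read from separate starts, and its estimated reads divided mainly between transcript Srebf1-201, which begins upstream as SREBP-1a does, and Srebf1-207, which begins 6 bases from the downstream start shown above. Srebf1-207 had 10.6, 20.6 and 14.7 CPM in knockout replicates 1 to 3, against 24.0, 40.7 and 39.9 CPM in control replicates 1 to 3. Its groups did not overlap, and its mean in knockout islets was 43.8% of the control mean (exact permutation test, two-sided, p = 0.1, the smallest that 3 against 3 allows). Srebf1-201 had 37.0, 38.8 and 38.5 CPM in knockout replicates 1 to 3, against 41.3, 66.7 and 63.7 CPM in control replicates 1 to 3, and its knockout mean was 66.6% of the control mean (exact permutation test, p = 0.1). The share of the downstream transcript among reads of the gene was 24.4 ± 3.8% in the knockout libraries, against 32.9 ± 2.1% in the controls (SD, n = 3 each), again with no overlap (exact permutation test, p = 0.1). These shares rest on the estimated split of reads that fit both transcripts. In the 9 genes with a second transcript of at least 20% of reads in some library, the share of the most abundant transcript overlapped between the groups in every case.

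Insig1, which retains SCAP in the endoplasmic reticulum and is itself an SREBP target, had 158, 52.6 and 80.6 CPM in knockout replicates 1 to 3, against 216, 146 and 185 CPM in control replicates 1 to 3. Knockout replicate 1 lay above control replicate 2, and the other knockout libraries lay below every control library. The log2 fold change was -0.91 (SE 0.37, adjusted p = 0.157, edgeR), and -1.04 with the replicate block (adjusted p = 0.0244). It was -1.46 without knockout replicate 1 (adjusted p = 0.0251, edgeR) and -0.61 without knockout replicate 2 (adjusted p = 0.267, edgeR).

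Srebf2 had 120.3, 113 and 137 CPM in knockout replicates 1 to 3, against 169, 156 and 174 CPM in control replicates 1 to 3. The groups did not overlap, and the level in knockout islets was 74.0% of the control level (log2 fold change -0.43, SE 0.14, adjusted p = 0.086 in edgeR and 0.0406 in DESeq2). Insig2 stayed within its spread, with 46.8 to 50.2 CPM in knockout libraries and 46.2 to 54.4 CPM in control libraries (log2 fold change -0.02, SE 0.12). Scap did too, with a log2 fold change of -0.08 (SE 0.15).

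In the sterol pathway, 0 of 18 genes were called by edgeR and by limma-voom, against 9.95% and 9.96% of all genes tested. DESeq2 called 1, against 14.2% of all genes, and the replicate block 2, against 14.8%. At an unadjusted p under 0.05, 2 were lower and 0 were higher, against 13.5% and 13.9% of all genes. The median log2 fold change was -0.16 with 11 genes negative, and it turned to 0.04 without control replicate 3. The pair of genes at an unadjusted p under 0.05 act at different steps. Lss (chr10:76531588-76557138, plus strand), the lanosterol synthase that closes the sterol rings, had 30.9, 27.3 and 34.9 CPM in knockout replicates 1 to 3, against 47.0, 39.6 and 59.9 CPM in control replicates 1 to 3. The groups did not overlap, and the knockout mean was 63.7% of the control level (log2 fold change -0.65, SE 0.18, adjusted p = 0.0601 in edgeR, 0.0197 with the replicate block and 0.0207 in DESeq2). Without the filter, adjusted p was 0.0386 in edgeR. It was 0.0722 in limma-voom, and in edgeR 0.217 with the acinar covariate and 0.202 with the length offset (log2 fold change -0.51). Lss was called in 0 of 6 edgeR fits with 1 library left out, with adjusted p of 0.0604 to 0.167.

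Sc5d, the sterol C5 desaturase near the end of the pathway, had 33.9, 22.2 and 29.0 CPM in knockout replicates 1 to 3, against 40.8, 38.5 and 46.2 CPM in control replicates 1 to 3. Again each knockout library lay below each control library (log2 fold change -0.56, SE 0.18, adjusted p = 0.0852 in edgeR, 0.0449 with the replicate block and 0.0541 in DESeq2). With the length offset the log2 fold change was -0.49 (adjusted p = 0.148, edgeR). Sc5d was called in 0 of 6 edgeR fits with 1 library left out, and its log2 fold change was -0.41 without knockout replicate 2. Dhcr7, which takes the last step to cholesterol, was lower in all 3 pairs with overlapping groups (log2 fold change -0.47, SE 0.24, adjusted p = 0.246, edgeR; -0.19 without control replicate 3).

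**Figure D3:**
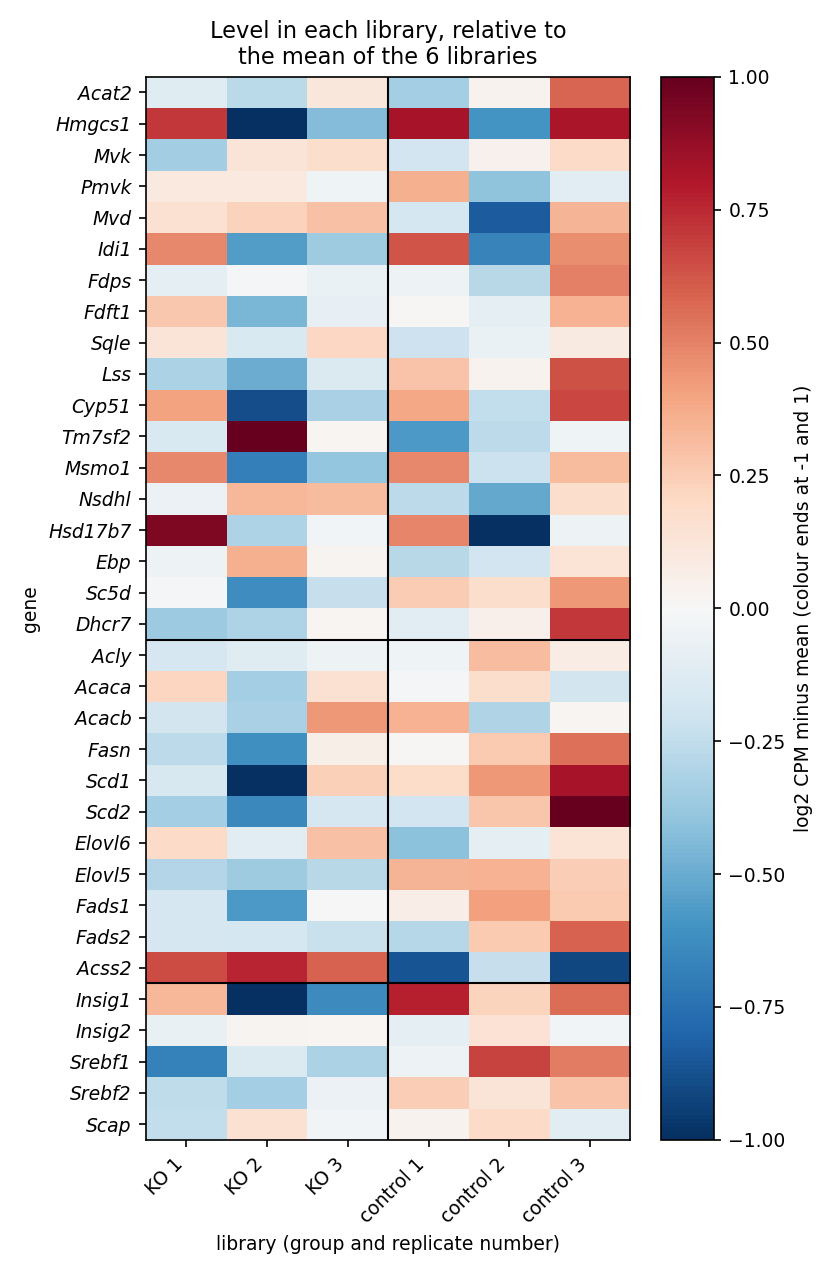
Level of the 34 genes in each library as log2 CPM minus the mean of the 6 libraries, knockout libraries left of the vertical line; colours end at -1 and 1. Among sterol pathway genes (top block), knockout replicate 1 and control replicates 1 and 3 share high levels of Hmgcs1, Idi1, Cyp51 and Msmo1, while control replicate 2 is low.

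For Hmgcs1, Idi1, Cyp51 and Msmo1 the range within each group was wider than the difference between the group means. Hmgcs1, which condenses acetyl-CoA units to HMG-CoA, had 207, 50.9 and 93.7 CPM in knockout replicates 1 to 3, against 223, 83.3 and 222 CPM in control replicates 1 to 3. Control replicate 2 lay below 2 of the knockout libraries, and knockout replicate 1 lay close to the higher controls (log2 fold change -0.59, SE 0.53, adjusted p = 0.511, edgeR; -1.29 without knockout replicate 1 and -0.23 without knockout replicate 2). Idi1, the isopentenyl isomerase, had 63.1, 30.8 and 35.3 CPM in knockout replicates 1 to 3, against 69.9, 28.5 and 62.3 CPM in control replicates 1 to 3. Here too replicate 2 was the lowest library in each group (log2 fold change -0.31, SE 0.37; -0.70 without knockout replicate 1 and -0.12 without knockout replicate 2).

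Cyp51, the lanosterol demethylase, had 82.0, 33.5 and 49.4 CPM in knockout replicates 1 to 3, against 80.9, 52.2 and 98.6 CPM in control replicates 1 to 3. Msmo1, which starts the removal of the C4 methyl groups, had 122.3, 54.6 and 67.2 CPM in knockout replicates 1 to 3, against 122.6, 75.7 and 109 CPM in control replicates 1 to 3. For both genes knockout replicate 1 stood among the controls, and the log2 fold changes of -0.49 (SE 0.34) for Cyp51 and -0.33 (SE 0.31) for Msmo1 did not pass; without knockout replicate 2 they were -0.23 for Cyp51 and -0.11 for Msmo1, and without knockout replicate 1 -0.90 for Cyp51 and -0.76 for Msmo1. In 8 of the 18 sterol pathway genes control replicate 2 was the lowest control and knockout replicate 1 the highest knockout library, against 11.5% of all genes tested. That pattern was seen in 0 of 11 fatty acid pathway genes and in 1 of 5 regulators. It was noticed in these data and not tested.

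**Figure D4:**
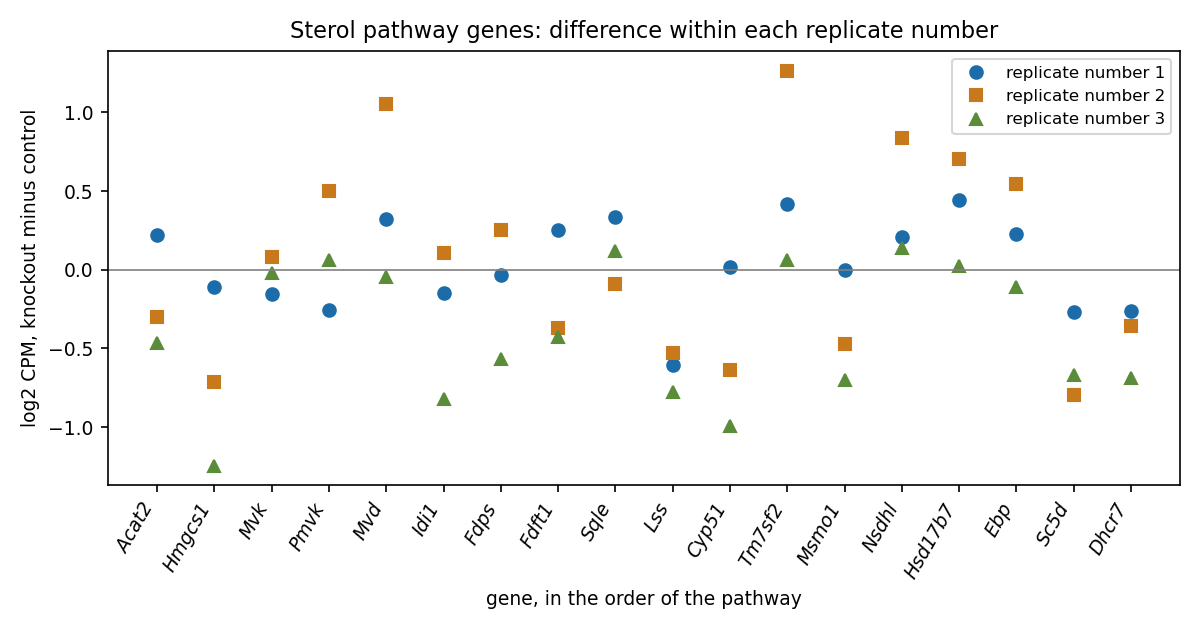
Difference in log2 CPM, knockout minus control, between libraries of the same replicate number for the 18 sterol pathway genes in pathway order. All 3 points lie below 0 for Hmgcs1, Lss, Msmo1, Sc5d and Dhcr7 (27.8% of the 18, against 27.1% of all genes tested), Msmo1 by -0.003 in replicate number 1. All 3 lie above 0 for Tm7sf2, Nsdhl and Hsd17b7 (16.7%, against 28.7% of all genes tested).

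The remaining sterol pathway genes did not pass in any of these tests. Tm7sf2, a sterol C14 reductase gene, had 10.7, 23.9 and 12.1 CPM in knockout replicates 1 to 3, against 8.01, 9.90 and 11.6 CPM in control replicates 1 to 3. Knockout replicate 2, the library in which levels fell with transcript length, was far above the rest (log2 fold change 0.66, SE 0.32, and 0.21 without that library). Of the 31-base words of Tm7sf2, 12.9% occur in another gene, most often the overlapping gene Vps51. Hsd17b7, the 3-keto reductase gene, had 23.6, 9.96 and 12.1 CPM in knockout replicates 1 to 3, against 17.4, 6.07 and 11.9 CPM in control replicates 1 to 3 (log2 fold change 0.37, SE 0.43; -0.10 without knockout replicate 1 and 0.60 without knockout replicate 2). Its highest library was knockout replicate 1 and its lowest was control replicate 2.

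Sqle, the squalene epoxidase and a control point of the pathway, had 166, 137 and 176 CPM in knockout replicates 1 to 3, against 132, 146 and 162 CPM in control replicates 1 to 3. The libraries overlapped, and its log2 fold change was 0.12 (SE 0.15). The mevalonate steps gave log2 fold changes of -0.22 (SE 0.25) for the thiolase Acat2, -0.02 (SE 0.21) for Mvk, 0.07 (SE 0.20) for Pmvk and 0.37 (SE 0.29) for Mvd. Farnesyl diphosphate synthase Fdps was at -0.16 (SE 0.20) and squalene synthase Fdft1 at -0.16 (SE 0.21). Nsdhl, of C4 demethylation, was at 0.38 (SE 0.22) and the isomerase Ebp at 0.22 (SE 0.17). The lowest adjusted p of these 8 genes was 0.309 in edgeR, for Nsdhl. Of their 31-base words, 43.7% for Acat2, 27.9% for Fdps and 14.3% for Fdft1 occur in another gene, and Mvd lies within the reach of Gm20388 on the opposite strand, which averaged 41.8 CPM over the libraries against 8.66 CPM for Mvd, so these levels are less certain.

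Neighbouring genes of lipid handling were counted in lists outside the 34. Of 20 genes of sterol sensing, transport and storage, 0 were called by edgeR, against 9.95% of all genes tested. At an unadjusted p under 0.05 there were 3, against 27.5% of all genes tested. DESeq2 called 3, all lower, against 14.2% of all genes called by DESeq2, 7.85% lower. These were Nr1h3, which encodes the oxysterol receptor LXR alpha, and the LXR targets Abca1 and Abcg1, which export cholesterol. Nr1h3 had 2.21, 3.53 and 4.70 CPM in knockout replicates 1 to 3, against 7.30, 6.29 and 6.78 CPM in control replicates 1 to 3 (log2 fold change -0.96, SE 0.30, adjusted p = 0.0857 in edgeR and 0.0258 in DESeq2). Its groups did not overlap over all transcripts, but with protein-coding transcripts only its log2 fold change was 0.32 (adjusted p = 0.687, edgeR), so its direction depends on which transcripts are counted. Abca1 had 157, 92.7 and 89.5 CPM in knockout replicates 1 to 3, against 261, 249 and 136 CPM in control replicates 1 to 3 (log2 fold change -0.93, SE 0.31, adjusted p = 0.0941 in edgeR, 0.0259 with the replicate block). Its groups overlapped, control replicate 3 being the low control. Abcg1 had a log2 fold change of -0.60 (SE 0.19, adjusted p = 0.0879 in edgeR), and its groups did not overlap. The sterol carrier Stard4, with -0.53 (SE 0.25, adjusted p = 0.211), passed only with the replicate block among these fits (adjusted p = 0.0439).

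Of 33 other genes of fatty acid and glyceride synthesis, 2 rose and 2 fell (12.1%), against 9.95% of all genes tested. Mlxipl, the glucose-responsive transcription factor ChREBP, had 139, 236 and 156 CPM in knockout replicates 1 to 3, against 351, 285 and 335 CPM in control replicates 1 to 3. Its groups did not overlap, and knockout replicate 2 was nearest to the controls (log2 fold change -0.87, SE 0.22, adjusted p = 0.0445, edgeR; -1.13 without knockout replicate 2). Agpat2, which acylates lysophosphatidic acid, fell by 0.95 on the log2 scale (SE 0.21, adjusted p = 0.0285, edgeR). Hsd17b12, the ketoreductase of fatty acid elongation, had 204, 138 and 159.7 CPM in knockout replicates 1 to 3, against 61.4, 76.0 and 103 CPM in control replicates 1 to 3. All knockout libraries exceeded all controls (log2 fold change 1.06, SE 0.23, adjusted p = 0.0262, edgeR). Hacd1, the dehydratase of the same cycle, rose by a log2 fold change of 1.35 (SE 0.26, adjusted p = 0.018, edgeR). With 1 library left out, 0 genes of this list were called without control replicate 1, control replicate 2 or knockout replicate 3, 1 without knockout replicate 1, 2 without control replicate 3 and 4 without knockout replicate 2.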

How the data were processed

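Poly(A) RNA of islets from 3 Dpy30 knockout and 3 control mice was sequenced, from 1000 ng of total RNA with a strand-specific kit and 9 cycles, per the labels' protocols. Trimmomatic, Salmon and DESeq2 are the tools, and GRCm38 and mm10 the builds, in the submitters' processing notes; the sources used here give neither their versions and settings nor the transcript annotation. Per library, the authors deposited a Salmon table with estimated counts, TPM and transcript lengths, per the file headers. They also deposited signal values per gene, which were not used here, and, per the file headers, a results table in which the authors give p-values, log2 fold changes and their SE (a score) for their own comparison.

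Transcripts were matched by identifier to GENCODE vM21 on GRCm38 (139852 of 140948, holding 99.6 to 99.7% of estimated reads). Gene sums of the estimated counts were rounded to whole numbers. A symbol shared by several genes was kept by the gene with most reads. Genes passed filterByExpr at a minimum count of 10. After TMM scaling, edgeR 4.0.16 (R 4.3.3) fitted group as the only term with its quasi-likelihood test, two-sided, with Benjamini-Hochberg adjustment over all 16430 genes and a threshold of 0.05. "Called" means an adjusted p under that threshold, and "rose" or "fell" is used of called genes. SEs come from the log2 fold change and its F statistic. TPM served only to compare levels between genes within control libraries. Alternatives were DESeq2 1.42.0, limma-voom (limma 3.58.1), RLE scaling, no filter, protein-coding transcripts only, an offset for transcript length, a replicate block, the acinar marker level as a covariate, and each library left out in turn. Transcript shares were compared by exact permutation tests (scipy 1.17.1). The edgeR test was checked on simulated data.

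Replicate numbers are shared by the groups in the labels, which do not say what a number marks. Same-numbered knockout and control libraries deviated from their group means with correlations of 0.427, 0.135 and 0.196. Each exceeds 0.1, the minimum used here for pairing, while pairs of different numbers ran from -0.318 to 0.14. The 0.14, of control replicate 3 with knockout replicate 2, also exceeds that minimum and the 0.135 of number 2. The rule therefore cannot settle whether the numbers pair the libraries. The reported fit and the permutation tests do not use the pairing; values with the replicate block are given beside results where they change a call. Each library came from a separate mouse, so p-values measure the spread between libraries of separate mice. In the reported fit that spread also holds differences of replicate number and library quality, which cannot be told apart from differences between mice. Members and lists were chosen with earlier results of these data known. Named genes are the 34 members, Dpy30, the called genes and up to 4 of smallest p of each neighbouring list, marker list sums and defining markers; Gss, Gm42418, Fabp4 and the printed promoters were chosen after their values were seen.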

Additional observations from a re-analysis of the deposited data

How the results depend on the processing

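Of 476 alternative values of the 34 log2 fold changes, 439 kept their direction and side of the threshold. Calls over all genes were 1634 as reported, 2535 in DESeq2, 2430 with the replicate block, 635 with the acinar covariate and 737 to 1330 with 1 library left out. Sterol pathway calls were 0 as reported, 1 in DESeq2, 1 without the filter, 2 with the replicate block and 0 in each fit with 1 library left out. Fatty acid pathway calls were 2, 3 in DESeq2, 1 with the acinar covariate and 1 to 2 with 1 library left out, where the call that was lost was Elovl5 in each case. Regulator calls were 0, 2 in DESeq2, 1 without the filter, 2 with the replicate block and 0 to 1 with 1 library left out. Other sterol handling calls were 0, 3 in DESeq2, 1 without the filter, 1 with the length offset and 2 with the replicate block. Other fatty acid and glyceride calls were 4, 9 in DESeq2, 8 with the replicate block, 1 with the acinar covariate and 0 to 4 with 1 library left out. Oxidation calls were 3, 4 in DESeq2 and with the replicate block, 2 with the length offset, 1 with the acinar covariate and 0 to 3 with 1 library left out. Changes of sign occurred in 10 genes, none of them called. With 1 library left out the log2 fold change ran from -0.42 to 0.054 for Acat2, -0.12 to 0.12 for Mvk, -0.094 to 0.30 for Pmvk, -0.31 to 0.10 for Fdps, -0.36 to 0.0012 for Fdft1, -0.10 to 0.76 for Hsd17b7, -0.075 to 0.18 for Acaca, -0.29 to 0.15 for Acacb, -0.073 to 0.047 for Insig2 and -0.18 to 0.015 for Scap. With the acinar covariate it was 0.081 for Fdps and -0.21 for Acaca, and with the length offset 0.15 for Acacb. The cause of these changes was not tested. The number of libraries, 3 per group, limits what could be called, and SEs of the 34 genes ran from 0.12 to 0.53.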

Other observations

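Of 18 genes of fatty acid oxidation, 1 rose and 2 fell (16.7%), against 9.95% of all genes tested, 4.1% higher and 5.84% lower. DESeq2 and the replicate block each called 1 higher and 3 lower, against 14.2% of all genes called by DESeq2 and 14.8% with the block. Cpt2, the inner carnitine palmitoyltransferase of mitochondria, had 29.5, 30.9 and 36.6 CPM in knockout replicates 1 to 3, against 50.7, 55.8 and 57.2 CPM in control replicates 1 to 3 (log2 fold change -0.76, SE 0.14, adjusted p = 0.0135, edgeR). Ehhadh, an enzyme of peroxisomal beta-oxidation, had 3.85, 5.99 and 5.04 CPM in knockout replicates 1 to 3, against 9.72, 17.7 and 12.3 CPM in control replicates 1 to 3 (log2 fold change -1.42, SE 0.29, adjusted p = 0.020, edgeR). Echs1, the short-chain enoyl-CoA hydratase, had 63.3, 72.5 and 58.2 CPM in knockout replicates 1 to 3, against 38.1, 40.9 and 40.2 CPM in control replicates 1 to 3 (log2 fold change 0.70, SE 0.13, adjusted p = 0.0151, edgeR). The groups did not overlap for any of these genes. Decr1, the dienoyl-CoA reductase, had a log2 fold change of -0.55 (SE 0.16, adjusted p = 0.0647, edgeR). None of the 18 genes was called without control replicate 2 or without control replicate 3.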
